A study of Mus musculus with 10 samples.

Results

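Cyclin I (Ccni) and 9 other cyclins that do not drive mitosis were examined in mouse cortical cultures, either depolarized or left untreated. The genes were Ccni, Ccng1, Ccng2, Ccnd1, Ccnd2, Ccnd3, Ccnl1, Ccnl2, Ccnt1 and Ccnt2, and every Ensembl transcript of these genes with counted reads was taken, which gave 17 transcripts of 10 genes among 22534 transcripts of 13184 genes. Ccni was chosen by its RF and translation efficiency values, already known to be lower after KCl in these cultures, so its values in that contrast are given as a description and without a test. The other 9 genes entered by family name.

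Cortical cells of newborn FVB mouse pups of both sexes were used as mixed neuron-glia cultures after 7 days in vitro. In 2 cultures (numbered 4 and 5) KCl was added to 55 mM for 3 h, and 3 cultures (numbered 1, 2 and 3) were left untreated. Cells of both groups received cycloheximide, which stalls ribosomes, shortly before lysis. Each lysate gave an RNAseq library and a ribosome footprint (RF) library, and a KCl replicate with a small library had been dropped by the authors. The sources used here do not say whether the cultures came from separate litters, so p-values measure the spread between these cultures.

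Cyclins are named for the proteins of the cell cycle that bind and activate cyclin-dependent kinases (CDKs), but much of the family has other work. The D cyclins (Ccnd1, Ccnd2, Ccnd3) couple growth signals to Cdk4 and Cdk6 in G1. The T cyclins (Ccnt1, Ccnt2) pair with Cdk9 in P-TEFb, the kinase that releases paused RNA polymerase II, and the L cyclins (Ccnl1, Ccnl2) pair with Cdk11 and act in pre-mRNA splicing. The G cyclins (Ccng1, Ccng2) are tied to growth arrest, Ccng1 as a target of p53, and Ccni is an atypical cyclin that is abundant in post-mitotic cells such as neurons and is reported to act with Cdk5.

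Translation efficiency (TE) was the RF level on the coding sequence (CDS) over the RNAseq level of the same culture. Levels were RPKM, reads scaled by annotated length and by TMM-adjusted library size, with all reads of a transcript for RNAseq and CDS reads for RF. For the filter alone, RPKM were scaled by all reads of the library without TMM, so they differ somewhat from the levels printed. A transcript was measured when both filter values reached 10 RPKM together in 2 or more cultures, which held for 7262 transcripts of 4369 genes. Among them were 9 of the 17 cyclin transcripts, from 8 of the 10 genes. Ccnd3 and Ccnt2 did not pass and are described separately. The RNAseq libraries held between 3056286 and 3629959 reads and the RF libraries between 1463654 and 7719915, with the shallowest RF libraries in untreated culture 3 and KCl culture 4. Fos and Junb, which depolarization induces, had RNAseq log2 fold changes of 1.58 (SE 0.18, adjusted p = 1.9e-09) and 1.02 (SE 0.18, adjusted p = 1.4e-05).

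The stretch ahead of the CDS set several of these mRNAs apart. Ribosomes scan the 5′UTR from the cap, and an upstream ATG can start a short open reading frame before the main one, more readily when a purine lies 3 bases before the ATG and a G directly follows it. The Ccni transcript had a 5′UTR of 626 nt, longer than that of 95.8% of measured transcripts, with 69.5% G and C and 4 upstream ATGs. At least 4 ATGs were found on the transcript strand of the 5′UTR in 10.8% of measured transcripts and at least 1 in 50.1%. These windows show the 4 upstream ATGs of Ccni and its annotated start codon, since this 5′UTR held a large share of the Ccni footprints described further on. Footprints were counted per region and are not placed at single ATGs. The windows were read from the GENCODE M21 transcript on GRCm38 and are written 5′ to 3′ with the ATG in capitals.
Ccni upstream ATG 1: cgccgccctATGgcgagaggg
Ccni upstream ATG 2: agggtcatcATGgaactagtt
Ccni upstream ATG 3: ccgaggatcATGaggtggtaa
Ccni upstream ATG 4: ggcccccggATGaccccgcgt
Ccni start codon: agggataccATGaag
The codons lie on the minus strand, the first at chr5:93206250-93206252 and the start codon at chr5:93202416-93202418. The first opens a frame of 33 codons that ends 281 nt before the start codon. The second has both a purine at the favoured place and a G after it, and its frame holds 5 codons. The frame of the third holds 3 codons. The fourth lies 122 nt ahead of the start codon, and its frame of 41 codons runs past it.

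Upstream ATGs were also present in Ccnt1 (4 in a 5′UTR of 700 nt), Ccng2 (3 in 541 nt) and Ccng1 (1 in 311 nt). The main transcripts of the D and L cyclins and of Ccnt2 had none. The windows of Ccng1, of the middle ATG of Ccng2 and of the last ATG of Ccnt1 are shown for comparison.
Ccng1 upstream ATG 1: gcgacgtagATGcgtcccagc
Ccng2 upstream ATG 2: aggagcaagATGcagccgggg
Ccnt1 upstream ATG 4: gcacggcggATGtgtgtcgcc
The Ccng1 codon lies at chr11:40755267-40755269 (minus strand) and opens a frame of 4 codons. The Ccng2 codon lies at chr5:93267656-93267658 (plus strand) and opens a frame of 5 codons. The Ccnt1 codon, at chr15:98567705-98567707 (minus strand), opens a frame of 75 codons that passes the start codon 71 nt downstream.

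**Figure D1:**
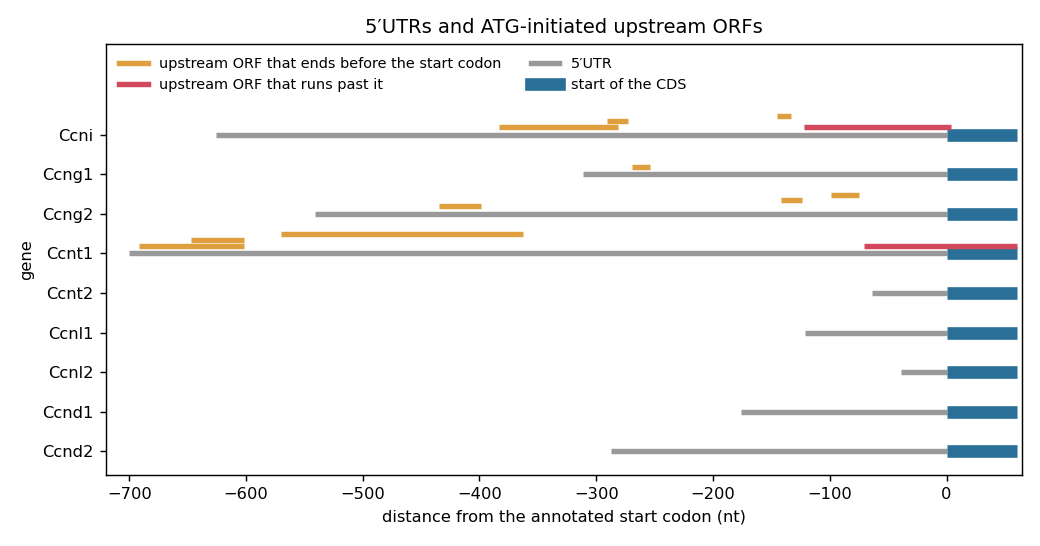
The 5′UTR of the main transcript of each cyclin (grey, length to scale) with the frames opened by upstream ATGs. Distance is from the annotated start codon in nt, and Ccnd3 is not drawn. Ccni and Ccnt1 have 4 frames each, of which 1 in each gene (red) runs past the start codon. The L cyclins, Ccnd1, Ccnd2 and Ccnt2 have none.

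The cyclins spanned a wide range of RNA and of TE. In untreated cultures Ccni had the highest RNAseq level of the 8 measured genes, with a mean of 83.2 ± 12.7 RPKM (SD, n = 3), at percentile 89.9 of measured transcripts. Ccnd2 followed with 52.6 ± 2.71 RPKM and Ccng1 with 45.7 ± 7.99 RPKM, and the cultures of these 2 genes overlapped. Ccnd1 stood at 25.8 ± 2.28 RPKM and Ccnl2 at 13.9 ± 0.650 RPKM, each apart from its neighbours. Ccng2, Ccnl1 and Ccnt1 came last with 11.2, 9.81 and 9.65 RPKM, and each overlapped the next.

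The order of TE in untreated cultures was another. The D cyclins headed it, Ccnd2 with a TE of 6.50 ± 0.404 (SD, n = 3, percentile 96.9) and Ccnd1 with 4.06 ± 0.477. Ccng2 (2.62), Ccnt1 (2.39), Ccng1 (1.66), Ccnl1 (1.25) and Ccnl2 (1.01) followed, each overlapping the next. Ccni came last with 0.390 ± 0.101, at percentile 1.82, and its highest culture lay below the lowest culture of Ccnl2. The median TE of measured transcripts was 1.82. The gene with the most RNA per length thus held the fewest footprints per RNA of the 8.

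**Figure D2:**
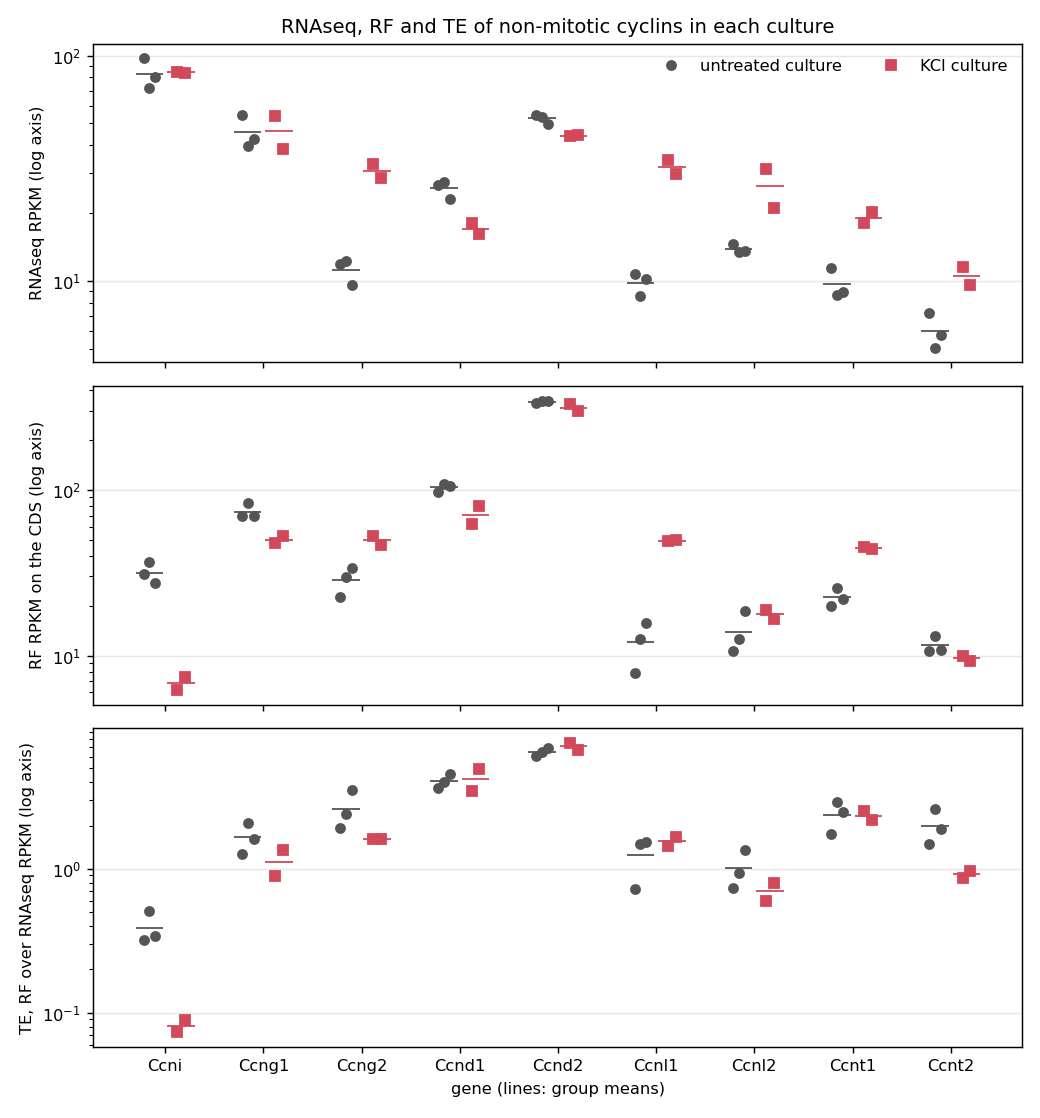
RNAseq RPKM, RF RPKM on the CDS and TE (log axes) of the 8 measured cyclins and of Ccnt2, which did not pass the filter, in each of 3 untreated cultures (grey circles) and 2 KCl cultures (red squares), with lines at the group means. The KCl cultures of Ccni lie below all untreated cultures in RF and TE but among them in RNAseq.

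After KCl, the transcripts of Ccnl1, Ccng2, Ccnt1 and Ccnl2 rose and that of Ccnd1 fell. Of the 8 measured genes 5 passed the test in RNAseq (adjusted p under 0.05 across all 7262 transcripts), 4 higher and 1 lower, where 33.2% of all measured transcripts passed, 17.5% higher and 15.7% lower. Ccnl1 and Ccnt1 did not meet the 10 RPKM filter by their untreated cultures alone. They entered through the KCl cultures, where they were high, so the filter favoured a rise in them. Both also count in the RF numbers and in the medians below. In RF, leaving aside Ccni, 5 of the other 7 passed, where 41.0% of all passed, 21.2% higher and 19.8% lower. Ccng2, Ccnl1 and Ccnt1 were higher, and Ccng1 and Ccnd1 were lower. In TE, where 5.8% of all passed, 1.67% higher and 4.13% lower, Ccni alone was past the threshold, as its selection had fixed. Of the other 7 genes 0 passed the edgeR test of TE, 2 (Ccng1 and Ccng2) had an unadjusted p under 0.05, and 0 passed with DESeq2. Without Ccni, the median log2 fold change of the 7 genes was 0.92 in RNAseq, 0.47 in RF and 0.02 in TE, beside -0.01, 0.00 and 0.03 over all measured transcripts. In bulk cultures fewer cells of a type and less RNA per cell cannot be told apart. Of all measured transcripts, 27.0% had both KCl cultures above all untreated ones in RNAseq and 27.9% had both below. In RF this held for 30.8% and 30.6%, and in TE for 16.7% and 17.5%.

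**Figure D3:**
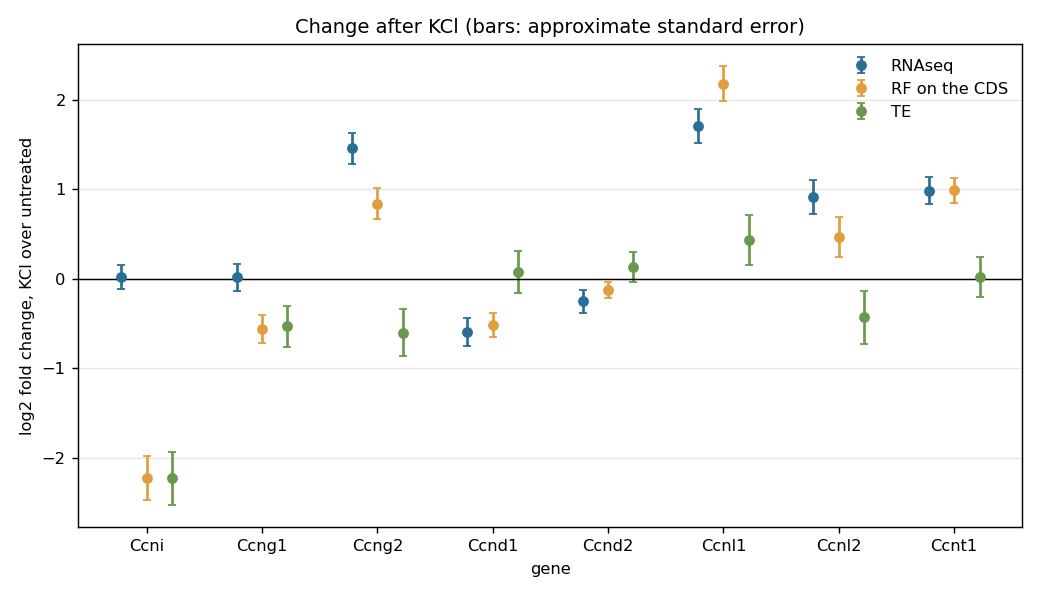
Log2 fold change, KCl over untreated, in RNAseq, in RF on the CDS and in TE for the 8 measured cyclins. Points are edgeR estimates and bars approximate standard errors. Ccni stands at 0.02, -2.22 and -2.23 in the 3 measures and Ccnl1 at 1.71, 2.18 and 0.43.

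Ccni kept its RNA and lost most of its CDS footprints. Its RNAseq level was 97.1, 72.2 and 80.2 RPKM in untreated cultures 1, 2 and 3 and 84.8 and 83.8 RPKM in KCl cultures 4 and 5. Its RF level was 31.3, 36.5 and 27.4 RPKM in the untreated and 6.19 and 7.42 RPKM in the KCl cultures. The RNAseq values of the groups overlapped, and in RF both KCl cultures lay below all untreated ones.

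In reads, the RF values of Ccni rested on 261, 260 and 42 CDS footprints without KCl and on 10 and 23 with it. TE was 0.322, 0.506 and 0.341 without KCl and 0.0730 and 0.0886 with it. The log2 fold change was 0.02 (SE 0.14) in RNAseq, -2.22 (SE 0.24) in RF and -2.23 (SE 0.29) in TE, which is 4.68-fold lower TE. Leaving out each culture in turn moved the TE value between -2.42 and -1.99. The TE of Ccni after KCl lay at percentile 0.0689 of measured transcripts.

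Of the 25-nt stretches of the Ccni CDS, 72.0% also occur in other annotated genes, the processed pseudogenes Gm8983 and Gm6352, which carry no counts of their own in these data. Reads from such copies could not be told apart from those of Ccni. RNAseq density on the 3′UTR was between 0.992 and 1.54 times that on the CDS of Ccni in the 5 cultures. The 5′UTR, in contrast, held only 3 to 9 RNAseq reads per culture.

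**Figure D4:**
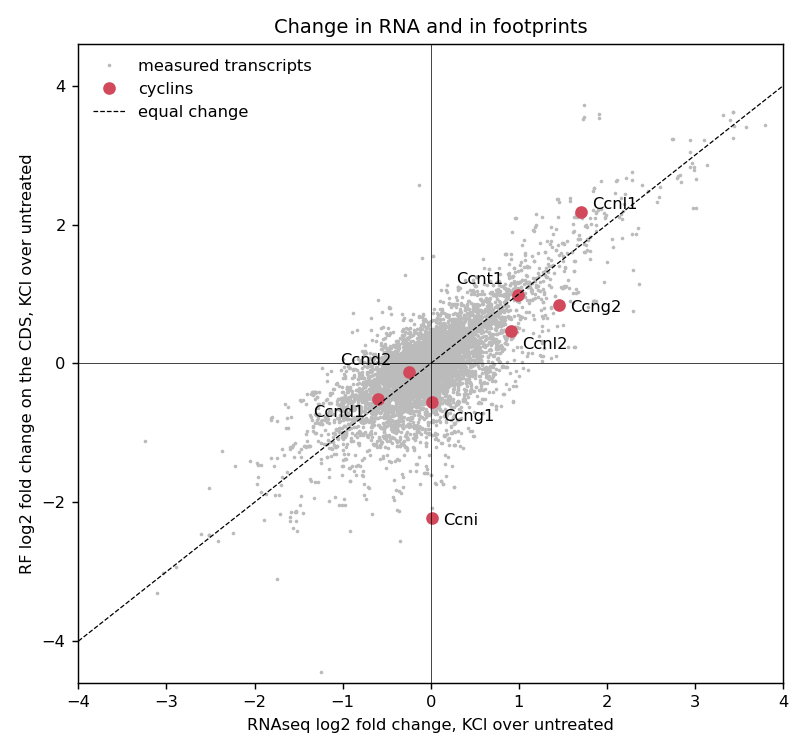
RNAseq log2 fold change (horizontal) against RF log2 fold change on the CDS (vertical), KCl over untreated, for 7262 measured transcripts (grey) and the 8 measured cyclins (red), with a dashed line of equal change and 3 transcripts outside the axes. Ccni lies far below the line at an RNAseq change of 0.02, Ccng1 below it at -0.56 in RF, and the D cyclins, Ccnl1 and Ccnt1 nearer to it.

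The G cyclins are close relatives of Ccni. Ccng1 had RNAseq levels of 54.7, 39.6 and 42.7 RPKM in the untreated and 53.8 and 38.7 RPKM in the KCl cultures. RF was 69.6, 82.8 and 69.3 RPKM in the untreated and 47.6 and 52.5 RPKM in the KCl cultures. The RNAseq groups overlapped and the RF groups did not.

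The log2 fold change of Ccng1 was 0.01 (SE 0.15, adjusted p = 0.954) in RNAseq and -0.56 (SE 0.15, adjusted p = 0.0047) in RF. TE was 1.27, 2.09 and 1.62 without KCl and 0.885 and 1.36 with it, with overlapping groups and a change of -0.53 (SE 0.23, adjusted p = 0.164). The RF call was lost without KCl culture 4 (-0.51, adjusted p = 0.0592), and the TE change passed the threshold without untreated culture 1 (-0.75, adjusted p = 0.0211).

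Ccng2 rose in both assays. Its RNAseq level was 11.8, 12.3 and 9.54 RPKM in the untreated and 33.0 and 28.7 RPKM in the KCl cultures, a log2 fold change of 1.45 (SE 0.18, adjusted p = 1.0e-08). RF was 22.7, 29.8 and 33.6 RPKM without and 52.9 and 46.3 RPKM with KCl, a change of 0.84 (SE 0.18, adjusted p = 4.1e-04). Both KCl cultures lay above all untreated cultures in both assays.

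TE of Ccng2 was 1.92, 2.42 and 3.52 without KCl and 1.60 and 1.61 with it. All KCl values lay below the untreated ones, but the change of -0.60 (SE 0.26) did not pass the test (adjusted p = 0.19). A second transcript of Ccng2 with a shorter 5′UTR was also measured, but its CDS and 3′UTR reads were the same as those of the first in every library, so it adds no further evidence.

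Among the D cyclins, Ccnd1 fell in both assays. Its RNAseq level was 26.8, 27.3 and 23.1 RPKM in the untreated and 18.02 and 16.1 RPKM in the KCl cultures, and RF was 97.1, 109 and 106 RPKM without and 62.5 and 79.6 RPKM with KCl. Every KCl culture lay below every untreated one in both assays. The log2 fold change was -0.60 (SE 0.16, adjusted p = 0.00295) in RNAseq, -0.52 (SE 0.14, adjusted p = 0.00394) in RF and 0.07 (SE 0.23, adjusted p = 0.926) in TE. The RNAseq call was lost without KCl culture 5 (-0.52, adjusted p = 0.0711) and with RNAseq reads on the CDS only (-0.43, adjusted p = 0.186), and the RF call without KCl culture 4 (-0.38, adjusted p = 0.102).

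Ccnd2 carried the highest footprint level of the family. It had RNAseq levels of 54.7, 53.5 and 49.5 RPKM without and 43.9 and 44.5 RPKM with KCl, a log2 fold change of -0.25 (SE 0.13, adjusted p = 0.123). RF was 335, 345 and 343 RPKM in the untreated and 330 and 298 RPKM in the KCl cultures, a change of -0.13 (SE 0.09, adjusted p = 0.267). The groups did not overlap in either assay, yet neither change passed the test. With library totals in place of TMM both did, at -0.32 (adjusted p = 0.0425) and -0.23 (adjusted p = 0.04).

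The summed RNAseq levels of markers of dividing cells and of astrocytes were lower in both KCl cultures, as were the levels of Ccnd1 and Ccnd2. The sums of oligodendrocyte lineage and microglia markers, given further on, were lower in both as well. The summed level of 9 counted proliferation markers was 289, 255 and 284 CPM in the untreated and 216 and 215 CPM in the KCl cultures, though 0 of the 2 measured ones passed the test. That of 7 astrocyte markers was between 10275 and 10896 CPM without and 8632 and 8863 CPM with KCl. In RNAseq 3 of 7 were lower, where 15.7% of all were, and in RF 4 of 7 were higher, where 21.2% of all were. In RNAseq Aqp4, a water channel, stood at -0.52 (adjusted p = 0.0015), and the glutamate transporters Slc1a3 and Slc1a2 at -0.41 (adjusted p = 0.0118) and -0.35 (adjusted p = 0.028). In RF Aqp4 and Slc1a3 were higher, at 0.36 (adjusted p = 4.8e-04) and 0.24 (adjusted p = 0.0108), and Slc1a2 stood at -0.05 (adjusted p = 0.641). Of the proliferation markers Ccnb1 was not listed, and none of either list was at 0. The part of either in the D cyclin values was not tested.

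Neuron markers summed to between 352 and 504 CPM in the untreated and 433 and 438 CPM in the KCl cultures, with Map2 not listed. Oligodendrocyte lineage markers summed to between 1166 and 1273 CPM without and to 1127 and 1121 CPM with KCl, microglia markers to between 189 and 194 CPM without and to 137 and 157 CPM with KCl, and fibroblast and endothelium markers to between 420 and 503 CPM without and to 450 and 404 CPM with KCl. In RF and TE some of these markers changed where their RNAseq sums overlapped. Col1a1 and Col3a1, collagens of fibroblasts, fell in RF (-1.39, adjusted p = 0.0248, and -0.81, adjusted p = 0.00603) and in TE (-1.04, adjusted p = 2.9e-07, and -1.10, adjusted p = 2.0e-07). In RNAseq Col1a1 was lower too (-0.36, adjusted p = 0.0283), and Col3a1 stood at 0.31 (adjusted p = 0.1). Snap25, a synaptic protein of neurons, rose in RF (0.88, adjusted p = 0.0262) and in TE (0.77, adjusted p = 0.0454). The part of these markers in the cyclin values, that of Ccni included, was not tested.

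Of the L cyclins both rose in RNA, and Ccnl1 had the largest rise of the 8 genes in both assays. It had RNAseq levels of 10.7, 8.53 and 10.2 RPKM in the untreated and 34.3 and 29.9 RPKM in the KCl cultures, which is 3.26-fold higher (log2 fold change 1.71, SE 0.19, adjusted p = 1.1e-09). Its RF level was 7.81, 12.6 and 15.7 RPKM without and 49.1 and 49.8 RPKM with KCl, which is 4.53-fold higher (2.18, SE 0.20, adjusted p = 1.5e-08). Both KCl cultures lay well above all untreated cultures in both assays. TE was 0.727, 1.48 and 1.55 without KCl and 1.43 and 1.67 with it, with overlapping groups (0.43, SE 0.28, adjusted p = 0.437).

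Ccnl2 had RNAseq levels of 14.6, 13.4 and 13.6 RPKM in the untreated and 31.5 and 21.05 RPKM in the KCl cultures (log2 fold change 0.92, SE 0.19, adjusted p = 1.6e-04). The KCl cultures were higher but lay far apart, and without KCl culture 4 the change was 0.60 (adjusted p = 0.0575). With RNAseq reads on the CDS only it was 0.61 (adjusted p = 0.0515). RF was 10.7, 12.6 and 18.5 RPKM in the untreated and 18.9 and 16.7 RPKM in the KCl cultures, with overlapping groups (0.47, SE 0.22, adjusted p = 0.0975), and passed without untreated culture 3 (0.59, adjusted p = 0.0331). TE was between 0.733 and 1.36 without and 0.600 and 0.792 with KCl (-0.43, SE 0.30, adjusted p = 0.474).

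Of the T cyclins, Ccnt1 rose in both RNA and footprints. Its RNAseq level was 11.4, 8.65 and 8.89 RPKM in the untreated and 18.004 and 20.2 RPKM in the KCl cultures, a log2 fold change of 0.98 (SE 0.15, adjusted p = 1.6e-06). RF was 19.8, 25.4 and 22.1 RPKM without and 45.4 and 44.0 RPKM with KCl, a change of 0.99 (SE 0.14, adjusted p = 3.4e-06). The groups did not overlap in either assay. TE was 1.74, 2.94 and 2.48 without and 2.52 and 2.18 with KCl, and the change was 0.02 (SE 0.22, adjusted p = 0.985).

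Ccnt2 stayed under the filter on RNAseq level, with 7.19, 5.04 and 5.78 RPKM in the untreated and 11.5 and 9.57 RPKM in the KCl cultures. RF was 10.7, 13.1 and 10.9 RPKM without and 10.001 and 9.25 RPKM with KCl. In a fit of all 22374 transcripts with at least 1 read, its RNAseq log2 fold change was 0.88 (SE 0.18, adjusted p = 2.2e-05), that of RF was -0.23 (SE 0.22, adjusted p = 0.536) and that of TE was -1.08 (SE 0.30, adjusted p = 0.0272). In those fits 18.5%, 23.7% and 1.76% of all transcripts passed.

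The added RNAseq reads of Ccnt2 were counted mostly in the 3′UTR. There, 104, 82 and 100 reads were counted without KCl and 195 and 184 with it, while the CDS held 53, 30 and 21 reads without and 48 and 43 with KCl. The CDS reads of the groups overlapped and the 3′UTR reads did not. The ratio of 3′UTR to CDS reads was 1.96, 2.73 and 4.76 without and 4.06 and 4.28 with KCl, with overlapping groups. Over all transcripts that ratio was 1.17, 1.18 and 1.25 without and 1.35 and 1.28 with KCl. In a fit chosen after these counts were seen, with RNAseq reads on the CDS only, the change was 0.47 (SE 0.30, adjusted p = 0.399) in RNAseq and -0.66 (SE 0.40, adjusted p = 0.685) in TE. The TE of Ccnt2 thus passed the test only where 3′UTR reads were counted in RNAseq. The second Ccnt2 transcript shared nearly all CDS reads and showed the same in its read counts, with 3′UTR reads of 68, 60 and 70 without and 185 and 169 with KCl. Its ratio of 3′UTR to CDS reads was 1.31, 2.07 and 3.5 without and 3.94 and 3.93 with KCl, and these groups did not overlap.

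Ccnd3 had no reads on its CDS in any library, in either assay and in any of its 6 transcripts. Of the 25-nt stretches of its CDS, 42.2% are shared with the pseudogene Ccnd3-ps. RNAseq reads lay in the 3′UTR of the main transcript (36, 62 and 44 without KCl and 32 and 57 with it) and in a region that the sources used here do not name (26, 42 and 27 without and 31 and 48 with KCl). RF reads lay in the annotated 5′UTR, with 27, 17 and 5 without KCl and 2 and 6 with it. The RNAseq log2 fold change in the fit of 22374 transcripts was 0.09 (SE 0.23, adjusted p = 0.86). No RF level on the CDS or TE can be given for Ccnd3.

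The share of footprints ahead of the start codon set Ccni apart from most transcripts. Its 5′UTR held 147, 154 and 36 footprints without KCl and 24 and 34 with it. Of the footprints on the 5′UTR and CDS together, this was 36.0%, 37.2% and 46.2% without and 70.6% and 59.6% with KCl. The medians of measured transcripts were between 3.20% and 5% in the 5 cultures, and only between 1.46% and 2.81% of transcripts had more footprints on the 5′UTR than on the CDS. Ccni was among them in both KCl cultures and in no untreated culture.

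Both parts of the Ccni transcript had fewer footprints after KCl. The log2 fold change of its 5′UTR footprints was -0.94 (SE 0.30), against -2.22 on the CDS. The change of 5′UTR against CDS footprints was 1.31 (SE 0.40). Without KCl culture 5 the 5′UTR change was -0.63, and without KCl culture 4 it was -1.19.

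In Ccng1 the 5′UTR share was 21.4%, 19.4% and 25.9% without KCl and 32.6% and 36.8% with it. Its 5′UTR footprints numbered 123, 111 and 29 without and 29 and 74 with KCl, a log2 fold change of 0.17 (SE 0.26, adjusted p = 0.764). In Ccng2 the share was 19.2%, 8.49% and 21.7% without and 27.8% and 28.4% with KCl. Its 5′UTR footprints, 41, 18 and 13 without KCl and 30 and 52 with it, rose by a log2 fold change of 1.73 (SE 0.35, adjusted p = 0.00163).

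Ccnt1 had few 5′UTR footprints, 11, 9 and 2 without and 10 and 21 with KCl, and its share was between 2.52% and 3.34% without KCl and 6.62% and 7.42% with it. The log2 fold change was 2.03 (SE 0.50, adjusted p = 0.0102), and the call was lost without KCl culture 4 (adjusted p = 0.0785) or 5 (adjusted p = 0.211). The D cyclins stayed near the median share, Ccnd2 between 4.12% and 6.62% and Ccnd1 between 2.46% and 5.95%. Ccnl1 had at most 6 footprints on its 5′UTR, and Ccnl2 and Ccnt2, with 5′UTRs of 39 and 64 nt, had 0.

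In the test of 5′UTR footprints 2 of the 5 cyclins that entered beside Ccni passed, Ccng2 and Ccnt1, both higher, where 10.7% of 3679 transcripts passed, 6.93% higher and 3.75% lower. In the test of 5′UTR against CDS footprints the 5 others had a median log2 fold change of 0.79 beside -0.03 over all 3679 transcripts, but 0 of 5 passed, where 1.09% of all passed. By edgeR 3 of the 5 (Ccng1, Ccng2 and Ccnt1) had an unadjusted p under 0.05, and by DESeq2 0 passed.

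**Figure D5:**
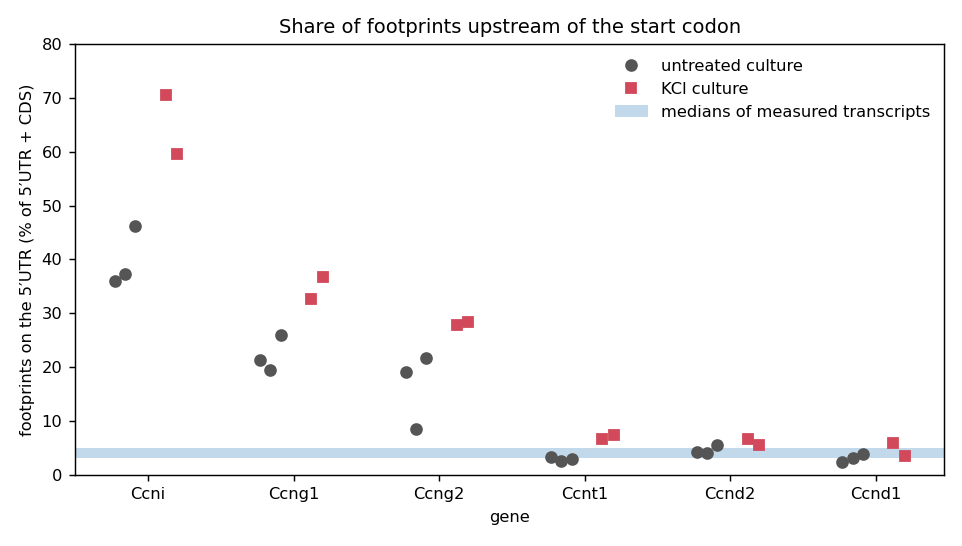
Footprints on the 5′UTR as a percentage of those on the 5′UTR and CDS, in 3 untreated cultures (grey circles) and 2 KCl cultures (red squares), for the 6 cyclins with enough 5′UTR footprints to be tested, with a band from the lowest to the highest culture median of all measured transcripts. Ccni rises from between 36.0% and 46.2% to 59.6% and 70.6%, and the D cyclins stay near the band.

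Among the kinases that cyclins bind, Cdk4 fell in both assays. Of 18 CDKs and CDK activators listed, 11 were measured, and 3 were higher and 1 lower in RNAseq (median log2 fold change 0.25), a share near the 33.2% of all measured transcripts. In RF 3 were higher and 2 lower, where 41.0% of all passed. In RNAseq Cdk13, a partner of cyclin K, stood at 0.58 (adjusted p = 0.00775). Cdk11b, the partner of the L cyclins, stood at 0.45 in RNAseq (adjusted p = 0.0336). Cdk19, a Mediator kinase, stood at 0.47 in RNAseq (adjusted p = 0.0272). In RF neither Cdk11b (0.33, adjusted p = 0.0612) nor Cdk19 (-0.39, adjusted p = 0.344) passed. Cdk4, the partner of the D cyclins, stood at -0.50 (adjusted p = 0.01) in RNAseq and -0.73 (adjusted p = 0.00171) in RF, the same direction as Ccnd1. Cdk9, the partner of the T cyclins, had an RNAseq change of 0.20 (adjusted p = 0.366) and an RF change of -0.47 (adjusted p = 0.0181).

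Most of the measured genes around P-TEFb rose in RNA. Of 11 listed, 7 were measured, and 6 were higher and 1 lower in RNAseq (17.5% and 15.7% of all measured transcripts), with a median log2 fold change of 0.82. Ell, an elongation factor, stood at 1.18 (adjusted p = 1.9e-06), Supt4a, a subunit of the DSIF complex, at 0.89 (adjusted p = 7.8e-06) and Eaf1, which binds Ell, at 0.82 (adjusted p = 3.7e-04). The gene that fell was Hexim1, which holds P-TEFb inactive, at -0.73 (adjusted p = 0.00169), and it is named here after its values were seen. In RF 3 of the 7 were higher and 0 lower (21.2% and 19.8% of all), with a median of 0.34, and in TE 0 of 7 passed (5.8% of all).

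Other cyclins were few among measured transcripts. Of 11 further non-mitotic cyclins 2 were measured. Ccnk, cyclin K, which binds Cdk12 and Cdk13 and acts in transcription elongation, rose by a log2 fold change of 1.60 in RNAseq (SE 0.14, adjusted p = 1.5e-12) and of 1.60 in RF (SE 0.14, adjusted p = 9.0e-10). Of 8 S-phase and mitotic cyclins 2 were measured, and Ccna2, cyclin A of S phase, fell in RF (-0.62, adjusted p = 0.00955) and stood at -0.51 in RNAseq (adjusted p = 0.0546).

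Among CDK inhibitors and pocket proteins, 4 of 10 were measured. Cdkn1a, the inhibitor p21, was higher in RNAseq (0.91, adjusted p = 6.2e-07) and Rb1, the retinoblastoma protein that D cyclins act on, was lower (-0.50, adjusted p = 0.0241). Of 14 targets of p53, the group to which Ccng1 belongs, 8 were measured, and 3 were higher and 2 lower in RNAseq, where 33.2% of all passed. Gadd45a, a stress-induced arrest gene, stood at 1.49 (adjusted p = 1.9e-05) and Mdm2, the ligase that degrades p53, at 0.79 (adjusted p = 8.2e-06), beside 0.01 for Ccng1. Sesn1 stood at -0.62 (adjusted p = 0.0118).

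The genes whose pattern over the 10 libraries was most like that of Ccni were Meis3, 2610507B11Rik, Mapk6, Ei24 and Chst2. Likeness was the root mean square difference in log2 CPM, each assay centred on its untreated mean, and it was between 0.251 and 0.310 for these genes beside a median of 0.996 over 4368 genes. Their RF log2 fold changes were between -2.12 (Meis3) and -1.69 (Mapk6) and their RNAseq changes between -0.37 (Meis3) and 0.26 (Ei24). Since likeness used these same libraries, the values describe the choice and are not tested.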

How the data were processed

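RNAseq and RF were measured in 5 cultures each. After trimming (Trimmomatic 0.32) and removal of rRNA (STAR 2.3.1z8), the authors aligned reads by Bowtie2 2.2.2 to mm10 transcripts from which degenerate sequence had been taken out, allowed several hits per read, and deposited raw counts per transcript region from BEDTools 2.20.1. A read can thus count for more than 1 isoform or gene copy. Regions carry letters, which were assigned to the 5′UTR, CDS and 3′UTR from read shares against annotated lengths after the counts were seen, and 1 stayed unnamed. Positions around start and stop codons, which the authors left out of TE, are included here. GENCODE M21 (GRCm38) gave names, lengths and sequences for 22172 of 22534 transcripts.

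KCl and untreated counts were compared by edgeR 4.0.16 (R 4.3.3, quasi-likelihood, robust), with TMM within each assay and Benjamini-Hochberg adjustment over all transcripts in the fit. TE was the interaction of assay and KCl with culture as a block. Both libraries of a culture share a lysate and a number in the labels. Their deviations from group means correlated between -0.0736 and 0.0637. 5′UTR footprints were tested over 3679 transcripts, and 5′UTR against CDS footprints as an interaction of region and KCl. The SE is the absolute log2 fold change over the square root of F, an approximation. The fits were tested on simulated data. DESeq2 1.42.0 and other filters, scalings and sample sets were tried as alternatives.

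Each cyclin is named by its transcript with the most RNAseq reads, beside the 5 genes most like Ccni, up to 4 called genes with the largest change per list, and Fos and Junb as a check of the labels (Nr4a1 and Egr1, also planned for it, are not listed). Genes of a list were taken for RNAseq and for RF apart. The values of 1 gene that this rule names are not reported here. The cyclins and lists were chosen with earlier results of these data known.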

Additional observations from a re-analysis of the deposited data

How the results depend on the processing

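With RNAseq reads on the CDS only, 3 cyclins (Ccng2, Ccnl1 and Ccnt1) passed in RNAseq in place of 5, and without the filter 3 in place of 6, in a fit added after seeing the data. TE had 2 cyclins past the threshold (Ccni and Ccnt2) in place of 1 with edgeR's filterByExpr and with no filter beyond 1 read, since Ccnt2 then entered the fit. Throughout these counts Ccni is included among the cyclins. Its selection had fixed its place past the threshold in RF and TE, so the counts are no test of Ccni. By DESeq2 1 cyclin (Ccng2) in place of 3 passed for 5′UTR footprints, and Ccnt1 was given no adjusted p. Without each culture in turn, the number of cyclins called was between 4 and 5 in RNAseq, 4 and 7 in RF, 1 and 2 in TE, 1 and 3 for 5′UTR footprints and 0 and 0 for 5′UTR against CDS footprints. Without KCl culture 4 or 5 only Ccng2 was called for 5′UTR footprints, and without untreated culture 1 or 2 Ccni was not. Without the replicate block TE again had 1 cyclin, and 413 in place of 421 transcripts, and the block changed no other call of a cyclin. Of 398 alternative values of the named cyclins, 379 kept their side of the threshold, 15 lost and 4 gained a call, and 26, of which 0 were called, had the other sign. Over all transcripts, TE calls fell from 421 to 174 with DESeq2, 260 with CDS reads only, 260 with 1 transcript per gene, 140 without KCl culture 4 and 66 without KCl culture 5. RNAseq calls went from 2412 to 1528 with CDS reads only, 1454 with 1 transcript per gene, 3918 with filterByExpr and 4141 with no filter. RF calls went from 2974 to 1696 without KCl culture 5, 1751 with 1 transcript per gene, 5282 with filterByExpr and 5311 with no filter. Calls of 5′UTR footprints fell from 393 to 158 with DESeq2, 224 without untreated culture 1, 140 without KCl culture 4 and 69 without KCl culture 5. Those of 5′UTR against CDS footprints went from 40 to 86 without the replicate block, 16 with DESeq2 and between 2 (without KCl culture 5) and 76 (without untreated culture 2) with a culture left out. The 10 and 23 CDS footprints of Ccni and the 2 to 21 5′UTR footprints of Ccnt1 limit the precision of their values.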
